A study of Bos taurus with 20 samples.

Results

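A set of 125 genes was low in bovine endometrium at estrus and high on days 5, 10 and 14 of the cycle, with medians of these days within 2-fold. The set was chosen from the 27607 gene IDs of the count tables, of which it makes up 0.453%. Counts were divided by each library's total and multiplied by 1000000 (CPM, reads scaled to a fixed library total), the median of the 4 libraries of a day was taken, and 0.5 was added. An ID was a member when its day 0 value was under 1000, when its values on days 5, 10 and 14 were each at least 5 and at least 3 times the day 0 value, and when these 3 values lay within 2-fold of each other. Days 0, 5, 10 and 14 therefore chose the members, and their differences are given as a description. Calls of the fit between these days are counted further on, and nothing is read from them. Day 18 had no part in the choice. No gene names come with the IDs, and 0 of them matched the table of cattle genes at hand, so the members are described by their patterns and only 4 are printed by ID.

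The endometrium is the lining of the uterus, and its glands and surface epithelium release the fluid in which an early embryo lives. At estrus estrogen from the ovarian follicle is high; after ovulation a corpus luteum forms, secretes progesterone for most of the cycle and regresses if there is no pregnancy, after which the next estrus follows. Progesterone acts through its receptor in endometrial cells and is known to switch transport, secretion and attachment genes of this tissue on and off. The word luteal is used here for days 5, 10 and 14 from this textbook course; it was not read from a hormone measurement.

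Biopsies came from virgin Holstein heifers aged at least 7 months and weighing at least 340 kg. All animals, day 0 included, had received a GnRH analog and an intravaginal progesterone device, then the prostaglandin analog cloprostenol at 96 and again at 120 hours, when the device was taken out. Random allotment gave 4 animals, and 4 libraries, to each of days 0 (estrus), 5, 10, 14 and 18. Total counts ran from 21234000 to 26644679 per library. Some libraries stood apart from others of their day, mainly day 10 replicates 1 and 3 and day 18 replicates 1 and 3. Counts of the day 18 tests are also given further on without some or all of them. The day 18 classes are also given without single day 18 libraries, but not without the day 10 ones. In whole biopsies, fewer cells of a type and less RNA per cell cannot be told apart.

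The members were mostly genes of middle abundance. Their luteal level, the geometric mean of the day 5, 10 and 14 values, ran from 5.96 to 996 CPM with a median of 49.02 CPM. It was at least 100 CPM in 32 members, between 20 and 100 CPM in 66 and under 20 CPM in 27. On day 0 the members' values ran from 0.803 to 185 CPM with a median of 7.74 CPM, so none came near the ceiling of 1000. Few members were off at estrus: 2 were under 1 CPM in every day 0 library, and the member with the fewest reads still had 40 counts over those 4 libraries.

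The ratio of the luteal to the day 0 level ran from 3.07 to 49.4, with a median of 5.20. It was under 4 in 28 members, from 4 to under 8 in 70 and at least 8 in 27. The highest of the 3 luteal medians fell on day 5 in 43 members, on day 10 in 36 and on day 14 in 46, and the highest was 1.53 times the lowest in the median member. At the edges of the rule, the lowest ratio of any luteal day to day 0 inside the set was 3.01 and the highest just outside was 2.99; the spread between luteal days reached 1.99-fold inside and began at 2.001-fold outside; the lowest luteal value inside was 5.18 and the highest outside 4.57. A further 276 IDs met every condition but rose by 2-fold to 3-fold, 98 missed only the steadiness between luteal days, 17 only the floor and 0 only the ceiling.

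All 125 members passed the low-count filter of the edgeR fit, which left 16947 IDs. By edgeR's quasi-likelihood test (p adjusted by Benjamini-Hochberg, threshold 0.05), days 5, 10 and 14 had 86, 96 and 94 members called higher than at estrus, where 4.43%, 8.62% and 7.28% of all tested IDs were called higher. These 3 contrasts share the day 0 libraries and are the ones the rule used. The choice itself set the members' excess over all tested IDs, so nothing is read from the counts. Members not called numbered 39, 29 and 31. In the order of these days, the log2 fold change had medians of 2.34, 2.41 and 2.29 over the members and of 0.017, 0.045 and 0.028 over all tested IDs.

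Because the rule read medians, up to 2 of the 4 libraries of a day could lie low without removing a gene. In 69 members (55.2%) all 12 luteal libraries exceeded all 4 day 0 libraries, a pattern seen in 6.6% of tested IDs; without day 5 replicate 1 and day 10 replicates 1 and 3 it was 107 members, against 12.3% of tested IDs. All 4 libraries of the day exceeded day 0 in 103 members on day 5, in 78 on day 10 and in 110 on day 14, where 20.3%, 14.5% and 25.8% of tested IDs had that pattern. The rule used these libraries, and the members' counts come in the same order of days as the shares of all tested IDs.

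To set the libraries side by side, each member was given a position in each library on the log2(CPM + 0.5) scale, with 0 at its day 0 level and 1 at its luteal level. The median position over the members was −0.10 to 0.045 in the day 0 libraries. On day 5 it was 1.14, 0.94 and 1.05 in replicates 2, 3 and 4 and 0.62 in replicate 1. On day 10 it was 1.10 and 1.15 in replicates 2 and 4, 0.87 in replicate 1 and 0.43 in replicate 3. The day 14 libraries lay between 0.86, in replicate 4, and 1.06. The libraries of days 0 to 14 themselves set the scale, so these positions only describe how evenly the animals of a day carried the pattern: most evenly on days 0 and 14 and least evenly on day 10.

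**Figure D1:**
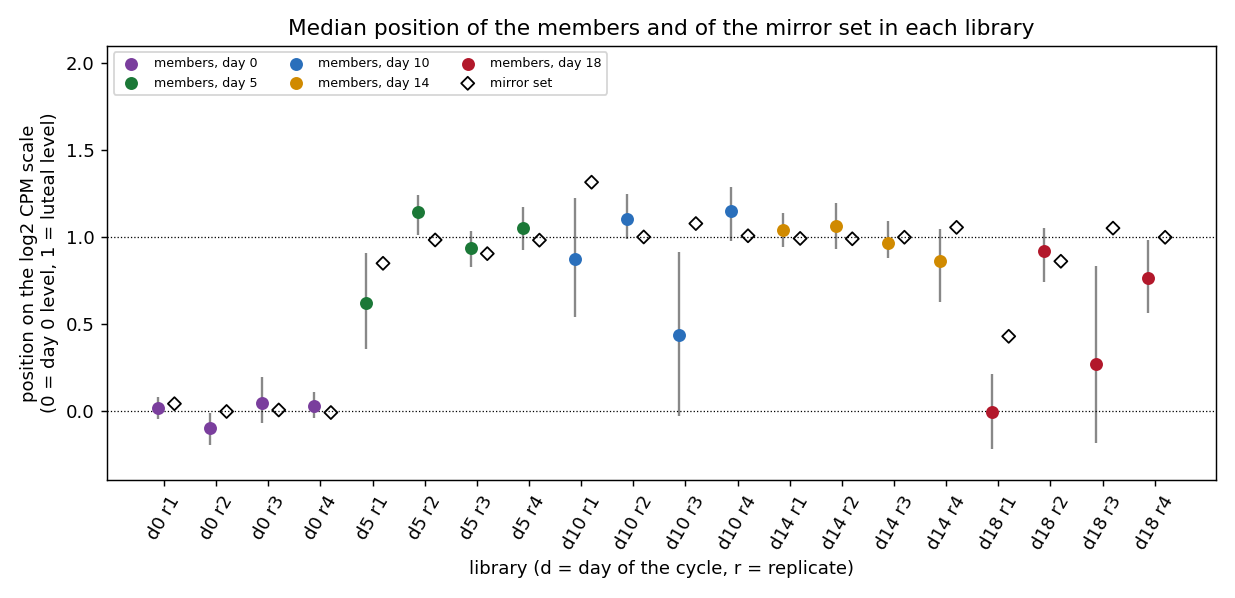
Position on the log2(CPM + 0.5) scale (0 is the day 0 level, 1 the luteal level) in each of the 20 libraries: filled points are the median over the 125 members with their quartiles as bars, and open diamonds are the median of 80 genes with the mirror-image pattern. Members reached −0.0095 and 0.27 in day 18 replicates 1 and 3, where the mirror-image genes were at 0.43 and 1.05.

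The members held a small share of the RNA that rose and fell with the same libraries. Of the counts they took 0.238% ± 0.038 at estrus (SD, n = 4, as for each day). The share was then 1.28% ± 0.431 (day 5), 1.40% ± 0.567 (day 10), 1.39% ± 0.264 (day 14) and 0.760% ± 0.419 (day 18). Within day 18 the share was 0.236% in replicate 1, 1.205% in replicate 2, 0.637% in replicate 3 and 0.960% in replicate 4. Replicate 1 thus fell inside the day 0 range of 0.185% to 0.269%, replicates 2 and 4 inside the luteal range of 0.688% to 1.86%, and replicate 3 between both ranges. The low end of the luteal range came from day 10 replicate 3 (0.688%) and day 5 replicate 1 (0.753%). Day 18 replicate 4 lay below every other luteal library, of which day 14 replicate 4 was the lowest (1.09%).

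Levels in the members varied between animals of a day. For days 0, 5, 10, 14 and 18, the SD of log2(CPM + 0.5) over the 4 libraries had medians over the members of 0.397, 0.699, 1.05, 0.501 and 1.39. Over the 12303 tested IDs with a mean of at least 5 CPM it was 0.226, 0.253, 0.363, 0.242 and 0.490. These medians are set side by side as a description, with no test.

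**Figure D2:**
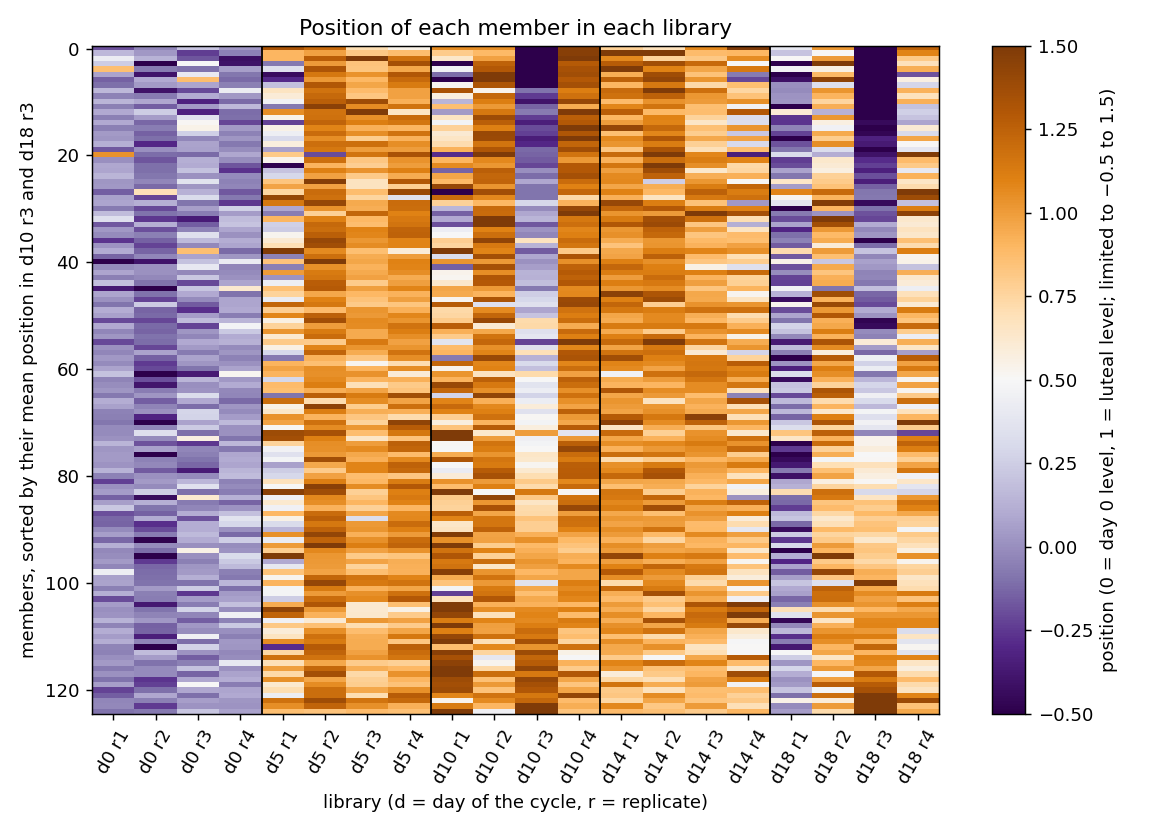
Position of each of the 125 members (rows) in each of the 20 libraries (columns), with purple for the day 0 level and orange for the luteal level, sorted by the mean position in day 10 replicate 3 and day 18 replicate 3. The upper rows are purple in these libraries as well as on day 0, while day 18 replicate 1 is purple nearly throughout: 112 of 125 members lay below the midpoint there.

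The 4 printed members show this pattern gene by gene. ENSBTAG00000004555 had the highest luteal level of the set. It measured 63.1, 58.7, 93.6 and 77.4 CPM in day 0 replicates 1 to 4, then 342, 1772, 619 and 945 CPM on day 5, 315, 1809, 36.2 and 1602 CPM on day 10, and 1590, 1956, 1046 and 661 CPM on day 14. The day 5 and day 14 libraries all lay above day 0, while day 10 replicate 3 lay below every day 0 library. On day 18 ENSBTAG00000004555 was at 74.4, 782, 10.3 and 421 CPM, so that replicate 1 was within the day 0 range, replicate 3 was the lowest of all 20 libraries and the other two were inside the luteal range.

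ENSBTAG00000021119 had the largest ratio of luteal to day 0 level. Day 0 gave 9.11, 10.65, 27.7 and 12.1 CPM, day 5 gave 12.5, 1055, 536 and 465 CPM, day 10 gave 89.3, 1940, 19.4 and 1544 CPM and day 14 gave 570, 1264, 416 and 229.8 CPM in replicates 1 to 4. Day 5 replicate 1 and day 10 replicate 3 lay inside the day 0 range, and every other luteal library lay above it. On day 18 it was at 4.53, 433, 10.1 and 141 CPM; replicates 2 and 4 were above day 0 and replicate 1 was below all 4 day 0 libraries.

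ENSBTAG00000023941 and ENSBTAG00000039719 had the lowest estimates for day 18 against the luteal days among members of at least 20 CPM. For ENSBTAG00000023941, day 0 read 2.81, 1.41, 4.32 and 0.638 CPM and day 18 read 2.80, 14.2, 0.449 and 8.44 CPM in replicates 1 to 4. In between it read 4.41, 74.7, 60.2 and 75.6 CPM on day 5, 1.21, 121, 2.15 and 134 CPM on day 10 and 51.9, 169, 17.02 and 24.6 CPM on day 14. Even the highest day 18 library was below all day 14 libraries, and day 10 replicates 1 and 3 were within the day 0 range.

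For ENSBTAG00000039719, day 0 gave 35.7, 51.5, 58.9 and 50.6 CPM and day 5 gave 58.5, 601, 440 and 436 CPM in replicates 1 to 4. Day 10 gave 369, 857, 39.3 and 971 CPM, day 14 gave 303, 879, 227 and 337 CPM and day 18 gave 42.6, 102, 17.3 and 118 CPM. The highest day 18 library was lower than the lowest of day 14, whereas day 5 replicate 1 and day 10 replicate 3 did not exceed the highest day 0 library. All 4 printed members lay low in day 10 replicate 3 and in day 18 replicate 3, so they stand for that share of the set only.

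**Figure D3:**
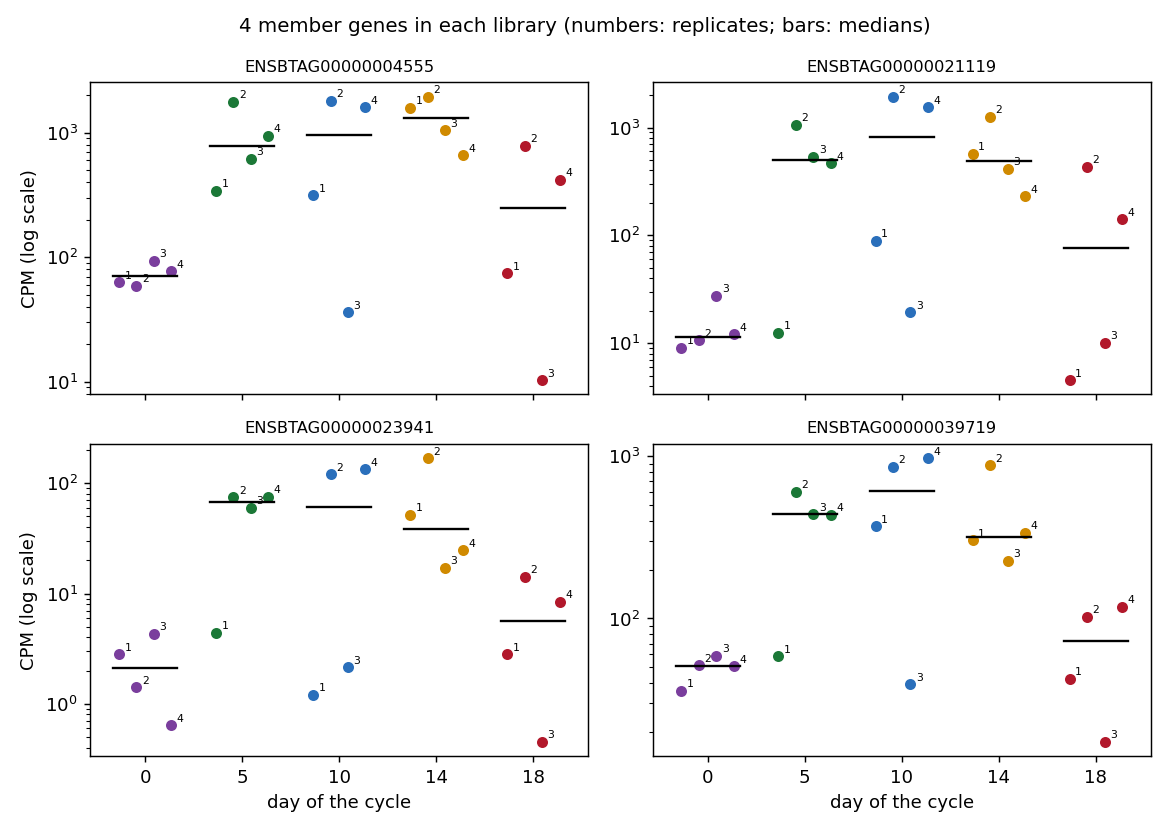
CPM on a log axis by day of the cycle for the 4 printed members, with 1 point per library, the replicate number beside it and bars at the median of 4. For ENSBTAG00000021119 the day 18 libraries span 4.53 to 433 CPM, from below the day 0 libraries to inside the luteal range.

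Day 18 is the day on which the members could lie anywhere. By the median of its 4 libraries, 67 members were within 2-fold of their luteal level, 30 were within 2-fold of their day 0 level and not of the luteal one, 28 lay between, and 0 were at least 2-fold above the luteal or below the day 0 level. The median was below the luteal level in 115 members and above the day 0 level in 121. The median member was −0.89 from its luteal level and 1.52 from its day 0 level on the log2 scale. Since the rule placed members high on the luteal days and low on day 0, the choice itself favours a day 18 value below the former and above the latter.

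These medians blend animals that differed. In day 18 replicate 1, 93 members were near the day 0 level, 15 were at least 2-fold below it and 8 were near the luteal level. In replicate 2, 101 members were near the luteal level and 7 near day 0, and in replicate 4 the numbers were 85 and 17. In replicate 3, 42 were near the luteal level, 47 near day 0, and 22 at least 2-fold below day 0. Median positions were −0.0095, 0.92, 0.27 and 0.76 in replicates 1 to 4. The class counts follow the library left out: members near day 0 numbered 17, 61, 17 or 57 without replicate 1, 2, 3 or 4, and members near the luteal level 91, 42, 81 or 48.

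The same libraries also stood low among all genes, but to a smaller extent. Levels at least 2-fold below the luteal level were found in 117 members in day 18 replicate 1, where 17.2% of tested IDs were that low, and in 78 members in replicate 3, against 17.8%. In replicates 2 and 4 it was 19 and 36 members, against 3.09% and 5.16%. Among luteal libraries, which took part in the choice, it was 70 members in day 10 replicate 3 (12.1% of tested IDs), 58 in day 5 replicate 1 (6.44%), 38 in day 10 replicate 1 (12.1%) and 30 in day 14 replicate 4 (6.98%). In the other 8 luteal libraries 2 to 7 members were that low.

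Against the mean of days 5, 10 and 14, 0 members were called lower on day 18 by the edgeR quasi-likelihood test, and 0% of tested IDs were. In simulated counts the same test found 89% of 4-fold falls but 27% of 2-fold ones. The count of 0 therefore does not show that members kept their luteal level. At an unadjusted p under 0.05, edgeR had 30 members lower and 0 higher, against 3.95% and 5.66% of tested IDs. The 30 became 17 (and 2 higher) without day 18 replicate 1, 53 without day 18 replicate 2 and 47 without day 10 replicate 3, while the share of tested IDs lower at that p moved to 2.71%, 6.67% and 5.11%. Without day 10 replicates 1 and 3 and day 18 replicate 3 together it was 44, against 4.68%. When day 18 replicate 1 was left out as well, 21 members were lower and 1 higher, against 3.47% and 4.28%. With the replicate number as a block 51 were lower, against 5.31%. DESeq2 called 6 members lower, against 0.236% of tested IDs. The median log2 fold change was −0.69 over the members and 0.033 over all tested IDs, and 115 of 125 members had a negative estimate, where 45.1% of tested IDs did. For the 4 printed members the estimates were −1.71 (SE 0.864) for ENSBTAG00000004555, −2.19 (SE 1.199) for ENSBTAG00000021119, −3.22 (SE 1.198) for ENSBTAG00000023941 and −2.67 (SE 0.722) for ENSBTAG00000039719, with edgeR adjusted p of 0.536, 0.558, 0.493 and 0.419. Without day 18 replicate 2 the estimates for ENSBTAG00000004555, ENSBTAG00000021119 and ENSBTAG00000023941 were −2.59, −3.64 and −3.89 (edgeR adjusted p = 0.249, 0.254 and 0.237). For the same IDs they were −1.38, −1.77 and −2.98 without day 18 replicate 1, and −1.29, −1.79 and −2.82 without day 18 replicate 3. The estimate for ENSBTAG00000039719 passed with DESeq2 (adjusted p = 0.00467; 0.00467 to 0.668 over its 25 alternatives). The 4 day 18 libraries lay below all 12 luteal libraries in 2 members, against 0.0472% of tested IDs.

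Against day 0, 22 members (17.6%) were called higher on day 18 (edgeR adjusted p under 0.05) and 0 lower, where 1.07% of tested IDs were called higher and 1.75% lower. At an unadjusted p under 0.05 it was 83 members higher, against 11.4%, and DESeq2 called 58, against 5.43%. The median log2 fold change was 1.505 over the members and 0.060 over all tested IDs. Of the printed members, ENSBTAG00000021119 was estimated at 3.09 (SE 1.38, edgeR adjusted p = 0.219) and ENSBTAG00000039719 at 0.35 (SE 0.744, edgeR adjusted p = 0.836); none of the 4 was called. Without day 18 replicate 2 the estimate for ENSBTAG00000021119 was 1.64 (edgeR adjusted p = 0.566), and with the replicate block 1.57 (0.526). In 18 members all 4 day 18 libraries lay above all 4 of day 0, against 4.41% of tested IDs. The count of 22 moved with each day 0 or day 18 library left out, and luteal libraries were not left out singly here. It was 1, 2, 8 or 5 without day 0 replicate 1, 2, 3 or 4, against 0.105%, 0.116%, 0.361% or 0.186% of tested IDs. Without day 18 replicate 2, 3 or 4 it was 7, 7 or 8, against 0.390%, 0.320% or 0.308%, and without day 18 replicate 1 it was 66, against 7.39%. Without day 10 replicates 1 and 3 and day 18 replicate 3 it was 42, against 1.63%, and without day 18 replicate 1 as well it was 96, against 9.55%. This contrast and the one against the luteal days share the day 18 libraries, and each has a side that the rule used.

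The low libraries were compared member by member. Below the midpoint between the day 0 and luteal levels lay 67 members in day 10 replicate 3 and 74 in day 18 replicate 3. The lists shared 63 members, which is 94.0% of the former and 85.1% of the latter, and 47 members were above the midpoint in both. Positions in the 2 libraries had a Spearman correlation of 0.85 over the 125 members. Neither the overlap nor this correlation was computed over all tested IDs, so they are not shown to be particular to the members. Over all tested IDs, deviations from the day means correlated at up to 0.77 between libraries of the same replicate number. Of the 74, 64 were also below the midpoint in day 18 replicate 1, where 112 of all 125 members were. The positions in day 18 replicates 1 and 3 had a correlation of 0.035, and positions in day 18 replicate 1 went with those in day 5 replicate 1 (0.67). These correlations are across genes, which are not independent replicates, and every position is scaled by the same day 0 and luteal levels, to which day 5 replicate 1 and day 10 replicate 3 contributed.

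**Figure D4:**
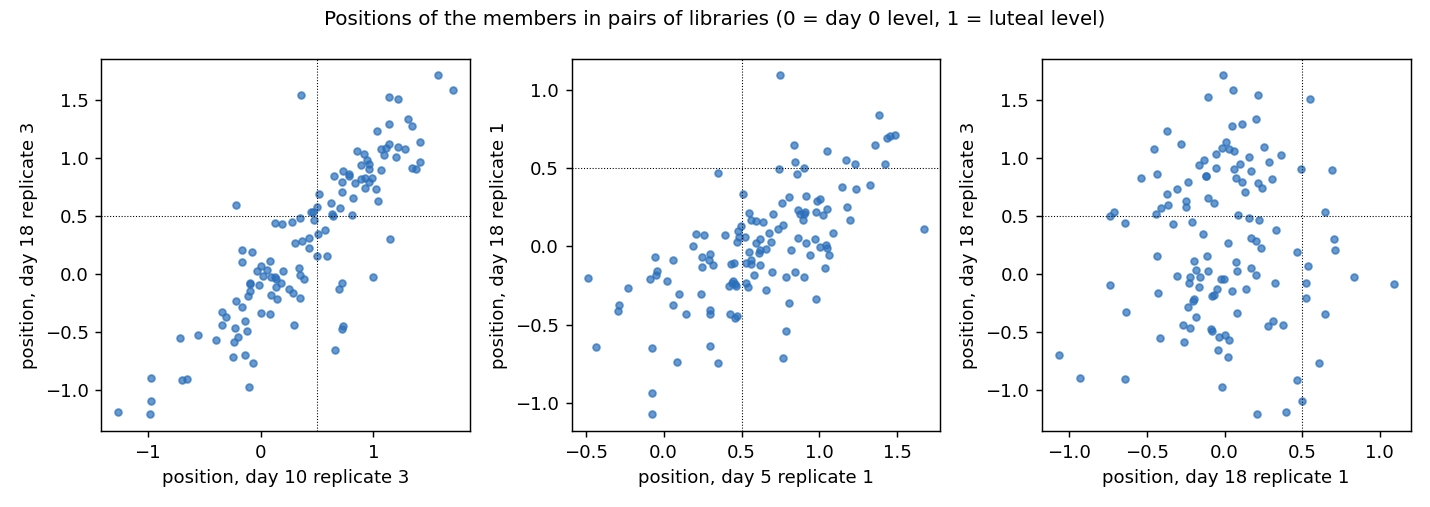
Positions of the 125 members (points; 0 is the day 0 level, 1 the luteal level, dotted lines the midpoints) in day 10 replicate 3 against day 18 replicate 3, day 5 replicate 1 against day 18 replicate 1, and day 18 replicate 1 against day 18 replicate 3. The points follow a rising band for day 10 replicate 3 against day 18 replicate 3 (Spearman correlation 0.85) and show no order for day 18 replicate 1 against day 18 replicate 3 (0.035).

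The 63 members low in both day 10 replicate 3 and day 18 replicate 3 had median positions of −0.012 and −0.14 there. Of the 63, 20 in day 10 replicate 3 and 32 in day 18 replicate 3 were below all 4 day 0 libraries. The 63 were picked for lying low in these libraries, and the share over all tested IDs was not computed. These counts therefore do not show that members went past the estrus level. In the other low library, day 18 replicate 1, the 63 members had a median position of −0.014, and in day 10 replicates 2 and 4 of 1.16 and 1.23. The 47 members above the midpoint in both libraries were at 0.96 and 0.90 there, and at 0.0095 in day 18 replicate 1, where 45 of the 47 lay below the midpoint. Both groups had like luteal ratios, with medians of 5.48 and 5.18, and luteal levels of 47.4 and 69.3 CPM. The groups were formed from these values, so their contrast in the libraries that formed them is no finding.

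Taking the 4 day 18 libraries together, 47 members were below the midpoint in replicates 1 and 3 only, 38 in replicate 1 only, 3 in all 4 and 3 in none, and 34 had other patterns. Members that rose under 4-fold, 4-fold to 8-fold and at least 8-fold had median positions of −0.054, 0.00092 and 0.027 in replicate 1 and of 0.94, 0.93 and 0.85 in replicate 2. In replicate 3 the members with the smallest rises were at 0.56 and the others at 0.13 and 0.11.

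The opposite pattern gave a set for comparison: 80 IDs had a day 0 value of at least 5 and under 1000 that was at least 3 times each luteal value, with luteal values within 2-fold of each other. Their median positions, again with 0 at the day 0 level and 1 at the luteal level, were 1.08 in day 10 replicate 3 and 1.05 in day 18 replicate 3. In those libraries the members stood at 0.43 and 0.27. In day 18 replicate 1 the mirror-image genes were at 0.43 and the members at −0.0095, and in day 18 replicates 2 and 4 they were at 0.86 and 0.998 and the members at 0.92 and 0.76. By these medians, day 18 replicate 1 lay toward estrus on both sets. Day 18 replicate 3 and day 10 replicate 3 had medians toward estrus on the members and at the luteal level on the mirror-image genes. The members were split there: 51 in day 18 replicate 3 and 58 in day 10 replicate 3 were at or above the midpoint. Day 10 replicate 3 also took part in choosing both sets. Positions rest on total counts. On the log2 scale the median tested ID was −0.18 from its luteal level in day 10 replicate 3, −0.33 in day 18 replicate 3 and −0.24 in day 18 replicate 1. Such an offset moves members toward estrus and mirror-image genes away from it, and its part in the positions was not tested. No test was made of the difference between the sets, and what the low libraries share in cell types or RNA quality was not tested, since the IDs carry no names.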

How the data were processed

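Poly(A) RNA was captured and made into libraries with a stranded TruSeq kit, per the labels' protocols; FastQC, STAR and edgeR are named, without versions, per the submitters' processing notes. The authors deposited raw counts per Ensembl gene ID, 1 file per library with 27607 IDs. Which build, annotation, counting program and strand setting served is not given in the sources used here, so reads of overlapping, antisense or near-identical genes may not be told apart. None of the 37063 genes of the RefSeq table ARS-UCD2.0 matched an ID (0 matches). The lists of genes drawn up for tissue, secretion and cell types could therefore not be used, and the 4 printed IDs follow the fallback rule: the highest luteal level, the largest luteal ratio at 20 CPM or more, and the 2 lowest estimates of day 18 against the luteal days at 20 CPM or more. The members and rules were chosen with earlier results of these data known.

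Counts were fitted in R 4.3.3 with edgeR 4.0.16 (filterByExpr, TMM factors, robust quasi-likelihood, 1 mean per day, 20 libraries; biological coefficient of variation 0.445 in common), with two-sided p-values adjusted by Benjamini-Hochberg over 16947 IDs and a threshold of 0.05. DESeq2 1.42.0 was an alternative. The members' CPM values use total counts. The fit was tested on simulated counts in which 200 IDs fell on day 18, for the contrast with the luteal days. It recovered 89% of 4-fold and 27% of 2-fold falls, and 9 of its 125 calls were false. Libraries of a day differed beyond sampling noise (chi-square per degree of freedom 27.3 to 563 over 30 pairs) and were treated as separate animals. Replicate numbers were checked for pairing. Figures were drawn with matplotlib 3.10.9 in Python 3.11.15.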

Additional observations from a re-analysis of the deposited data

Results flagged for a closer look

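In 35 groups of 4 libraries, 3 values lay far from the other 3 of their day; chance flags about 1 in 20 such groups. ENSBTAG00000021119 had 27.7 CPM in day 0 replicate 3, against 9.11 to 12.1 CPM in the other day 0 libraries. ENSBTAG00000039719 had 879 CPM in day 14 replicate 2, against 227 to 337 CPM in the others. The mirror-image genes had a median position of 1.06 in day 14 replicate 4, against 0.989 to 0.998 in the others.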

How the results depend on the processing

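The rule gave 125 members, 401 with a ratio of 2 in place of 3, 68 with a ratio of 4 and 55 with luteal days within 1.5-fold. Leaving out 1 library gave 81 to 144, with 81 and 83 without day 10 replicates 2 and 4; of these, 71 and 70 were among the 125. TMM-scaled CPM gave 98, of which 94 were shared, and the rule without day 10 replicates 1 and 3 gave 130, of which 90 were shared. With 1.5-fold limits for the day 18 classes, 39 members were near the luteal level, 74 between, 11 near day 0 and 1 below it; with TMM-scaled CPM 1 was below it. Without 1 day 18 library the near-luteal count was 42 to 91, the count between 17 to 27, the count near day 0 17 to 61 and the count below it 0 or 3.

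Members called lower on day 18 than on the luteal days numbered 0 in 24 of 25 alternatives and 6 with DESeq2. Members called higher on day 18 than on day 0 numbered 22, against 58 with DESeq2 (5.43% of tested IDs), 1 with only the libraries of both days (0.0189%) and 1 to 66 without 1 library (0.105% to 7.39%); 42 were called without the 3 libraries that lay apart (1.63%) and 96 without these and day 18 replicate 1 (9.55%), both chosen after the data were seen. With total counts alone 28 members were called, 1.49% of tested IDs were higher and 1.26% lower, and the median of all tested IDs moved from 0.060 to 0.14. With the replicate number as a block the count was 14 (0.667% of tested IDs) for day 18 against day 0 and 0 against the luteal days. Of 40 same-numbered pairs of libraries, 12 had deviations correlated above 0.1 (−0.37 to 0.77, median 0.046). Among libraries of other days, 10 of 20 libraries correlated best with one of their own number. Each day had its own animals, but whether a number stands for a shared batch or order was not tested. ENSBTAG00000004555 against day 0 passed without the 3 libraries (edgeR adjusted p = 0.0401), and it and ENSBTAG00000021119 passed without these and day 18 replicate 1 (0.00210 and 0.0133). The causes of these shifts were not tested. No named estimate changed sign. Every member passed the low-count filter, and the spread over 4 animals per day sets the precision.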
